A study of Mus musculus with 15 samples.

Results

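Synaptic adhesion organizers are surface and secreted proteins that join a developing axon terminal to its partner. Of the 19475 genes in the deposited table, 39 were examined here as members of this class, chosen by name from the neurexins, LAR-type receptor phosphatases, neuroligins, LRRTMs, cerebellins, calsyntenins, SLITRKs, IL1RAPL1, SALMs (Lrfn genes), FLRTs, latrophilins, SynCAMs (Cadm genes), and CASPR2. Brain RNA was sequenced from 5 WT, 5 Tbr1 +/K228E, and 5 Tbr1 K228E/K228E mouse embryos on the C57BL/6J strain at E16.5, with 3 females and 2 males in each genotype. K228E is an amino acid change knocked into exon 1 of Tbr1, the gene of a T-box transcription factor of cortical projection neurons. The knock-in allele was made with loxP sites and a neomycin cassette that a protamine-Cre removed in the germ line, and it is carried by every cell and not by chosen neurons. The sample labels and the methods of the study name the tissue as brain, and its results speak of forebrain samples.

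Neurexins and LAR-type phosphatases sit mainly on the axon and bind many postsynaptic partners, either directly (neuroligins, LRRTMs, SLITRKs, SALMs, IL1RAPL1, calsyntenins) or through secreted linkers such as the cerebellins. FLRTs bind latrophilins across the cleft and UNC5 receptors on migrating neurons, and SynCAMs pair with each other. Several of these genes, Cntnap2 among them, are linked to autism, and at this embryonic age most cortical synapses have not yet formed.

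The value of every gene in every embryo is a normalized read count, that is, an estimated read count divided by a size factor of the library. Differences were tested with limma on log2(value + 1), all 16507 genes with a mean of at least 5 entered the test, and a difference was called at a Benjamini-Hochberg adjusted p under 0.05 over all of them. All 39 members were tested. Normalized counts of an embryo summed to between 30.5 and 31.8 M, and the log2 values of embryos of one genotype correlated at 0.977 to 0.987. The limma p-values set differences against the spread between embryos. All p-values treat these 15 embryos as independent, which could not be checked because the labels name no litters. In this bulk tissue, fewer cells of a type and less RNA per cell cannot be told apart.

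Tbr1 had normalized read counts of 3517, 4122, 4871, 2097, and 3079 in WT embryos, 4738, 8543, 6337, 6743, and 4985 in Tbr1 +/K228E embryos, and 11530, 7148, 16015, 10671, and 11467 in Tbr1 K228E/K228E embryos. The mutated gene at chr2:61802930-61814114 (GRCm38, plus strand) was therefore higher in each Tbr1 K228E/K228E embryo than in each WT embryo, whereas 1 of the 5 Tbr1 K228E/K228E embryos overlapped with the Tbr1 +/K228E embryos. Tbr1 differed by 1.69 (SE 0.23) on the log2 scale between Tbr1 K228E/K228E and WT embryos with a limma adjusted p of 0.00437. The difference was 0.85 between Tbr1 +/K228E and WT embryos and 0.85 between the mutant genotypes (exact permutation p = 0.0159 for each). Limma called neither of these differences of the mutated gene, whose SD within genotypes was 0.41 on the log2 scale. The content of the samples varied within genotypes. Summed over 18 Hox genes of the hindbrain and spinal cord, normalized counts ran from 3.66 to 3969 between embryos, and over 12 genes of meningeal fibroblasts from 555 to 35016. For 10 telencephalic markers such as Emx1 and Neurod6 the sums ran from 22709 to 54009, for 5 choroid plexus genes from 141 to 24260, and for 12 neuron markers such as Tubb3 and Dcx from 255429 to 306032. Markers of the cerebellar granule lineage summed to between 7652 and 10555, of astrocytes to between 6417 and 10123, of the oligodendrocyte lineage to between 3248 and 5827, of endothelium to between 3591 and 6778, of microglia to between 644 and 1300, and of erythroid cells to between 28765 and 83148. None of these marker genes was at 0 in all 15 embryos.

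The first question was how strongly each organizer was transcribed at E16.5, before any comparison of genotypes. Every member had a mean normalized count of at least 50 over the 15 embryos, 31 of the 39 had at least 1000, and the means ran from 274 for Il1rapl1 to 35740 for Ptprs. To compare genes, the WT mean was divided by the length of the exons of the gene in kb. On that scale Clstn1 was highest (3608 ± 383 normalized counts per kb, mean ± SD, n = 5), followed by Ptprs (2344 ± 213) and Adgrl1 (2257 ± 84.6), and the SDs of the last 2 overlapped. Nlgn2 (1786 ± 59.9), Cadm3 (1559 ± 214), and Nrxn2 (1014 ± 126) came next. The lowest were Lrrtm4 (95.2 ± 7.81), Slitrk4 (75.6 ± 11.0), and Il1rapl1 (29.5 ± 4.65). Exon length depends on the gene model, and when the longest transcript was used in its place Ptprs took rank 1 and Clstn1 rank 2, with Il1rapl1, Slitrk4, and Flrt1 lowest.

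**Figure D1:**
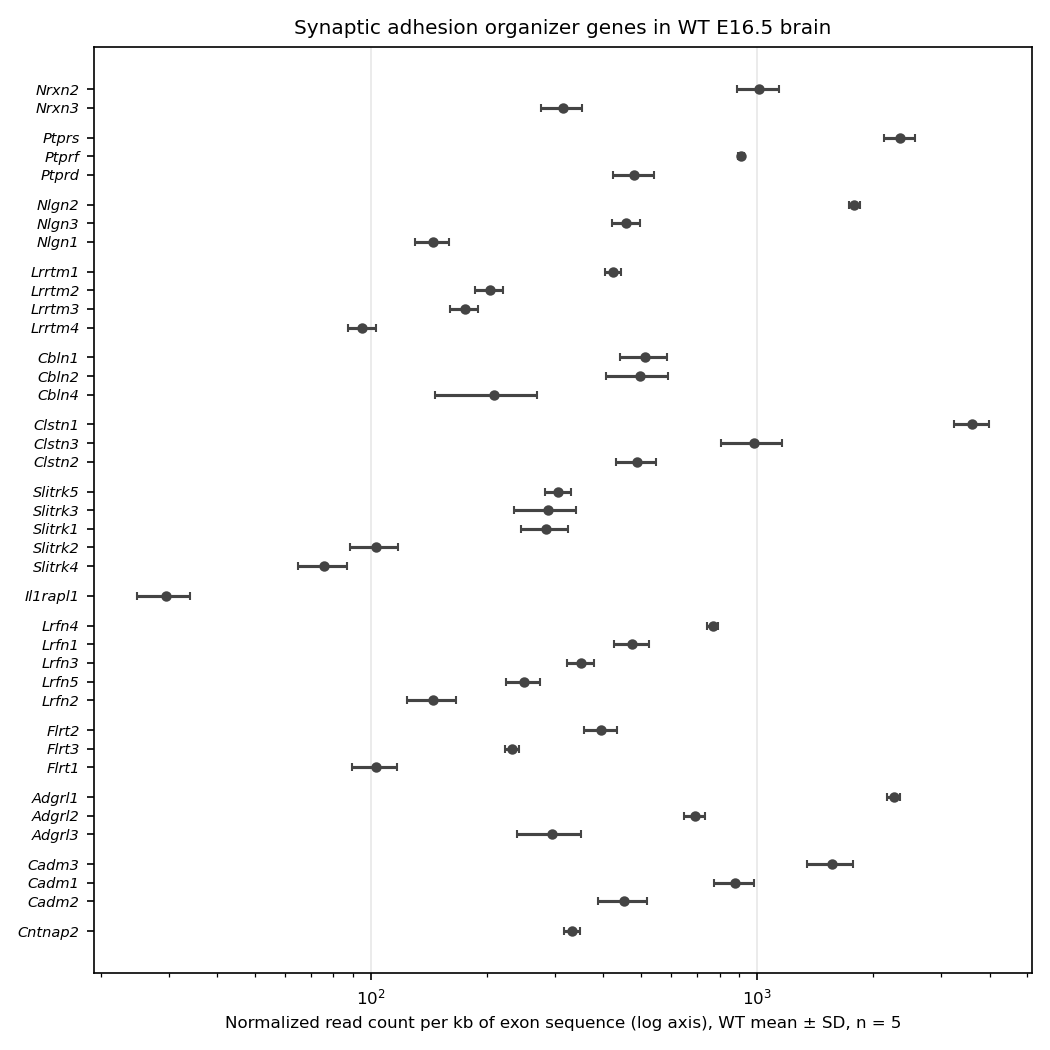
Normalized read count per kb of exon sequence (log axis) of the 39 genes in WT embryos, ordered within each family, with points for means and bars for the SD of 5 embryos. Clstn1 lies farthest to the right at 3608 and Il1rapl1 farthest to the left at 29.5.

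The comparison of genotypes asked whether the organizers responded to 1 or 2 mutant alleles. No member was called. The limma count was 0 of 39 for Tbr1 +/K228E against WT embryos (0% of all genes tested were called), 0 of 39 for Tbr1 K228E/K228E against WT embryos (0.127% of all genes), and 0 of 39 for Tbr1 K228E/K228E against Tbr1 +/K228E embryos (0.0788%). A slope on the number of mutant alleles was also called for 0 of 39 members by limma, against 0.0727% of all genes. At an unadjusted limma p under 0.05 the members numbered 0 of 39 in the first comparison (1.79% of all genes), 3 of 39 in the second (3.23%), 3 of 39 in the third (3.3%), and 3 of 39 for the slope (3.29%). Exact permutation of the labels of 5 and 5 embryos cannot give a p below 0.00794, and it gave an unadjusted p under 0.05 for 0 of 39 members in the first comparison (2.38% of all genes), 1 in the second (2.99%), and 5 in the third (4.1%).

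The median log2 difference of the 39 members was -0.03 between Tbr1 +/K228E and WT embryos, 0.01 between Tbr1 K228E/K228E and WT embryos, and 0.05 between the mutant genotypes, while the median of all genes tested was 0.00 each time. Between Tbr1 +/K228E and WT embryos the members' differences ran from -0.22 (Lrrtm3) to 0.07 (Clstn2), and 28 of 39 were below 0. Of all genes tested, 8441 of 16507 were below 0. Members were measured in the same embryos, so that their signs are not independent. Between Tbr1 K228E/K228E and WT embryos they ran from -0.24 (Clstn2) to 0.23 (Flrt3), with 20 above and 19 below 0. These comparisons share the WT embryos. The precision was such that the 95% interval had a median half-width of 0.16 on the log2 scale and lay inside -0.5 to 0.5 for 37 of 39 members in Tbr1 +/K228E embryos (all but Lrrtm3 and Cbln4) and for 36 of 39 in Tbr1 K228E/K228E embryos (all but Clstn2, Lrrtm3, and Cbln4).

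**Figure D2:**
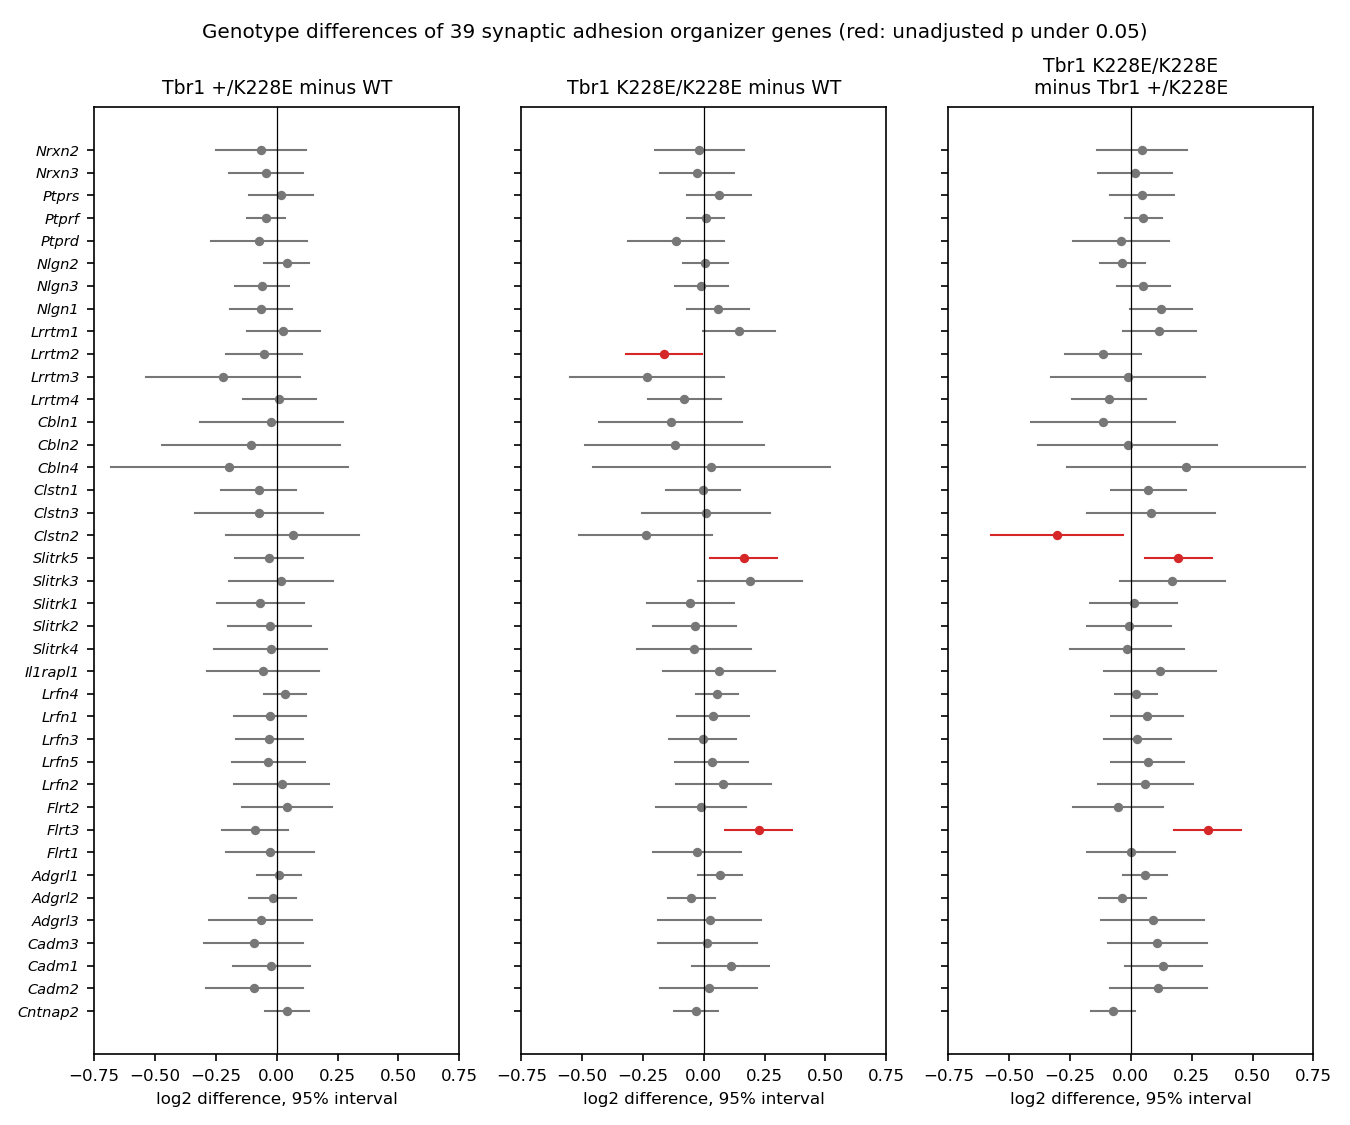
Log2 differences of the 39 genes (points) with 95% limma intervals (bars) for the 3 genotype comparisons, in red where the unadjusted p is under 0.05. Intervals cross 0 for all members in the left panel, and for all but Lrrtm2, Slitrk5, and Flrt3 in the middle panel and all but Clstn2, Slitrk5, and Flrt3 in the right panel.

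FLRTs are leucine-rich repeat proteins with a dual use, as latrophilin ligands at synapses and as guidance cues for migrating cortical neurons. Flrt3 had normalized read counts of 1097, 1123, 1171, 1077, and 1186 in WT embryos, 958, 1099, 1031, 1050, and 1183 in Tbr1 +/K228E embryos, and 1298, 1235, 1531, 1270, and 1291 in Tbr1 K228E/K228E embryos. Each Tbr1 K228E/K228E embryo was above each WT and each Tbr1 +/K228E embryo, which was the case for no other member (genes that were higher without overlap made up 0.321% of all genes against WT and 0.491% against Tbr1 +/K228E). Flrt3, at chr2:140650914-140671469 on the minus strand of GRCm38, differed by 0.23 (SE 0.06) on the log2 scale from WT and by 0.31 (SE 0.06) from Tbr1 +/K228E embryos, whereas Tbr1 +/K228E and WT embryos differed by -0.09 (SE 0.06). The exact permutation p was 0.00794 for both comparisons of the Tbr1 K228E/K228E embryos, the smallest that 5 against 5 can give. Groups without overlap always give this value. The limma p was 0.00311 (adjusted 0.702) against WT and 0.000182 (adjusted 0.143) against Tbr1 +/K228E. The difference thus did not pass the correction over all genes in these limma fits. The study itself used DESeq2 with p-values corrected by an empirical null. It listed Flrt3 among the genes upregulated in Tbr1 K228E/K228E against WT embryos. The study also placed Flrt3 among the upregulated genes shared with earlier lists from other Tbr1 mutants. These lists came from Tbr1 null forebrain and from mice with a cortical layer-specific deletion of Tbr1. As wholes, the lists had no significant association in the study. One Tbr1 K228E/K228E embryo, at 1531, stood above the other 4, and without it the difference from WT was 0.17 (limma adjusted p = 1.00) and that from Tbr1 +/K228E was 0.26 (limma adjusted p = 0.253). With the Hox score (mean log2 value of the Hox genes) as a covariate, the difference between the mutant genotypes was 0.31 with a limma adjusted p of 0.0293. With the forebrain markers, a covariate added after seeing the data, it was 0.34 with a limma adjusted p of 0.0197. Apart from leaving out embryos, it passed in only 2 of 16 alternatives (limma adjusted p up to 0.324). Against WT, the Hox score gave 0.19 (limma adjusted p = 0.612) and the forebrain markers 0.21 (limma adjusted p = 0.241). The part of tissue content in these differences was not tested further.

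The other FLRTs did not show this pattern. Flrt2 had normalized read counts of 3079, 3344, 3286, 2630, and 2891 in WT embryos, 3105, 3694, 3282, 2883, and 2752 in Tbr1 +/K228E embryos, and 3165, 2606, 3166, 2894, and 3278 in Tbr1 K228E/K228E embryos. The 3 genotypes overlapped, and the lowest values of Flrt2 lay in a WT male and a Tbr1 K228E/K228E female. Per kb, Flrt2 was the highest FLRT in WT embryos (395 ± 38.0), above Flrt3 (232 ± 9.63) and Flrt1 (103 ± 13.8). Differences of Tbr1 K228E/K228E from WT embryos were -0.01 (SE 0.09) for Flrt2 and -0.03 (SE 0.08) for Flrt1.

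The 250 bases before the RefSeq start of Flrt3 (GRCm38.p6, chr2:140671477-140671726, minus strand) and of Flrt2 (chr12:95691976-95692225, plus strand) are shown because TBR1 is a DNA-binding protein and the former gene alone had embryos without overlap. Capitals mark the letters AGGTG, or CACCT for the opposite strand, which open the longer T-box half-site.
Flrt3: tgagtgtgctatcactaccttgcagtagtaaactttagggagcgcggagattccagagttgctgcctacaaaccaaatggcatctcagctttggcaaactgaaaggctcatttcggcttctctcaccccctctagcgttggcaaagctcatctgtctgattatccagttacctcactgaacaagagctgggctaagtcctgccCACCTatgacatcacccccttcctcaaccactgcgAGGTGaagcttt
Flrt2: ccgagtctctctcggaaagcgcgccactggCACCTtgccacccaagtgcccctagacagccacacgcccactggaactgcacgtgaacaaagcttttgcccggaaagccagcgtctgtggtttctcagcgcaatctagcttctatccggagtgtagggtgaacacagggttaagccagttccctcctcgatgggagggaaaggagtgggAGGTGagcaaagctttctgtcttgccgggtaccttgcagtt
Each of these windows holds 1 AGGTG and 1 CACCT. The 5 letters are frequent, in 46.0% of 32851 RefSeq promoter windows of this length and in 17 of the 38 windows of the 28 members that could be matched. The 7-letter motif GGTGTGA, or TCACACC, was in 3.33% of all windows and in 0 of the 38 windows of members. A match describes the letters only, and the 5-letter motif was chosen after the search for the longer one.

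Among the listed partners of the organizers, the netrin and FLRT receptor Unc5b (chr10:60762593-60831581, GRCm38, minus strand) was lower in Tbr1 K228E/K228E embryos. Unc5b had normalized read counts of 838, 860.5, 734, 838, and 888 in WT embryos, 779, 783, 774, 762, and 779 in Tbr1 +/K228E embryos, and 656, 625, 543, 577, and 727 in Tbr1 K228E/K228E embryos. All 5 Tbr1 K228E/K228E embryos were below all other embryos, and the Tbr1 +/K228E embryos were close to each other. Of 16507 genes tested, 45 were lower without overlap against WT and 64 against Tbr1 +/K228E embryos. The log2 difference was -0.41 (SE 0.07) from WT with a limma adjusted p of 0.0318, and -0.32 (SE 0.07) from Tbr1 +/K228E with a limma adjusted p of 0.291. The exact permutation p was 0.00794 for both, which groups of 5 without overlap always give. Unc5b passed against WT without WT embryo 3, without Tbr1 +/K228E embryo 2 or 4, or without Tbr1 K228E/K228E embryo 5, and did not pass when any 1 of the others was left out (limma adjusted p from 0.0107 to 0.117 over the 15 embryos). The call was also lost when the WT and Tbr1 K228E/K228E embryos were fitted alone (limma adjusted p = 0.271) and with the Hox score as a covariate (limma adjusted p = 0.0505), and it held in the other alternatives run. Tests of the other partners gave no further call. Of 27 listed extracellular partners, 0 rose and 1 fell against WT in Tbr1 K228E/K228E embryos (0.127% of all genes were called), with a median difference of -0.01. For Tbr1 +/K228E against WT and between the mutant genotypes limma called 0 partners (0% and 0.0788% of all genes). At an unadjusted limma p under 0.05 the partners numbered 3 of 27 for Tbr1 K228E/K228E against WT embryos, 2 higher and 1 lower (3.23% of all genes). They numbered 0 for Tbr1 +/K228E against WT embryos and 2 between the mutant genotypes (1.79% and 3.3% of all genes).

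Tenm2 had normalized read counts of 6403, 6852, 7936, 8625, and 9693 in WT embryos, 7708, 6403, 7693, 8381, and 8210 in Tbr1 +/K228E embryos, and 8663, 8409, 10245, 9911, and 8959 in Tbr1 K228E/K228E embryos. This teneurin, a transmembrane ligand of latrophilins, was higher in all 5 Tbr1 K228E/K228E embryos than in all 5 Tbr1 +/K228E embryos, but WT embryos spanned most of both ranges. Of all genes, 0.491% were higher without overlap in this comparison. The difference between the mutant genotypes was 0.27 (SE 0.10), with a limma p of 0.0204 (adjusted 0.996). The exact permutation p was 0.00794, which groups of 5 without overlap always give. Of 28 cytoplasmic scaffolds that bind the organizers from inside the cell, such as the PSD-95, CASK, liprin, and SHANK families, and of 11 relatives of the members such as Slitrk6 and Elfn1, limma called 0 in each of the 3 comparisons. Of all genes, 0%, 0.127%, and 0.0788% were called in these comparisons. At an unadjusted limma p under 0.05, the scaffolds numbered 0 in each and the relatives 0, 0, and 1 (1.79%, 3.23%, and 3.3% of all genes).

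**Figure D3:**
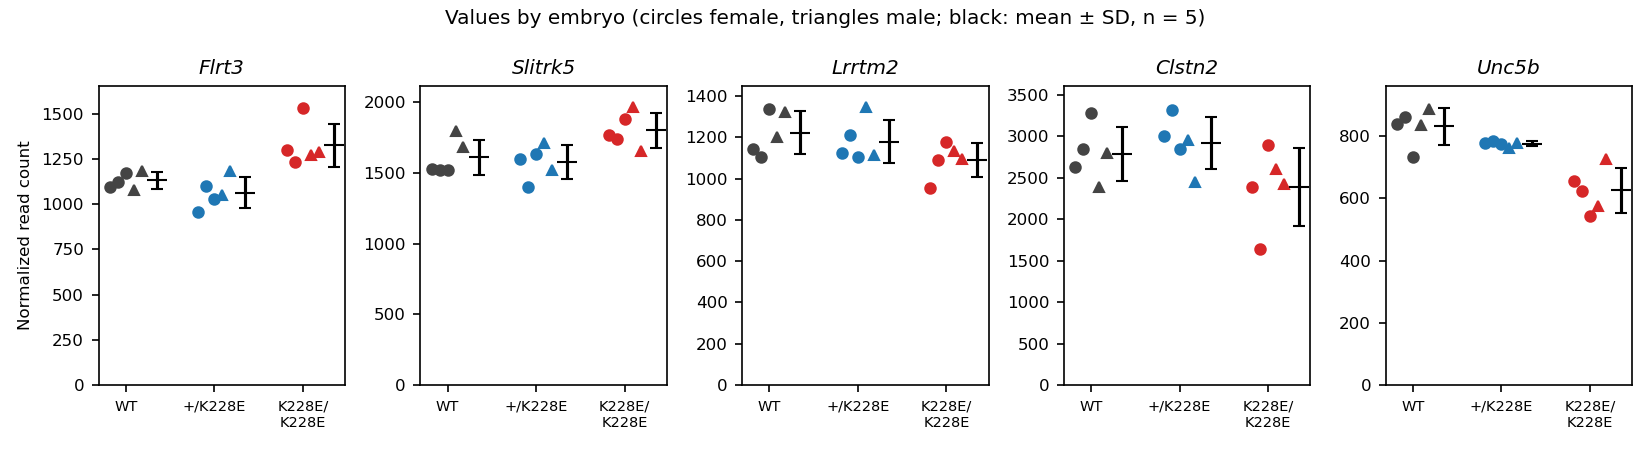
Normalized read counts (axes from 0) of Flrt3, Slitrk5, Lrrtm2, Clstn2, and Unc5b in each embryo by genotype, circles for females and triangles for males, with mean ± SD of 5 embryos in black. The Tbr1 K228E/K228E embryos clear both other genotypes for Flrt3 (1235 to 1531, upward) and Unc5b (543 to 727, downward) and overlap with them for the other 3 genes.

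Latrophilins are the adhesion receptors that hold FLRTs and teneurins. Adgrl1 had normalized read counts of 18457, 19040, 19343, 19665, and 20411 in WT embryos, 19862, 18672, 18458, 20880, and 19726 in Tbr1 +/K228E embryos, and 19219, 20476, 20518, 21372, and 19947 in Tbr1 K228E/K228E embryos. The Tbr1 K228E/K228E embryos included the highest value, but the ranges overlapped, and the difference from WT was 0.07 (SE 0.04) on the log2 scale. Adgrl2 stood at 691 ± 43.7 and Adgrl3 at 295 ± 55.9 normalized counts per kb in WT embryos, with differences from WT of -0.05 (SE 0.05) and 0.02 (SE 0.10) in Tbr1 K228E/K228E embryos.

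SLITRKs are postsynaptic ligands of the LAR-type phosphatases that act at excitatory or inhibitory contacts according to the member. Slitrk5 had normalized read counts of 1527, 1522, 1521, 1796, and 1681 in WT embryos, 1601, 1401, 1636, 1715, and 1520 in Tbr1 +/K228E embryos, and 1770, 1737, 1882, 1967, and 1656 in Tbr1 K228E/K228E embryos. Among Tbr1 K228E/K228E embryos, 2 of 5 exceeded all WT embryos and 4 of 5 exceeded all Tbr1 +/K228E embryos, so that both pairs of groups overlapped. Slitrk5 (chr14:111675097-111683141, plus strand) differed by 0.16 (SE 0.07) from WT, with a limma p of 0.0236 (adjusted 1.00) and an exact permutation p of 0.0556. Against Tbr1 +/K228E embryos the difference was 0.20 (SE 0.07), with a limma p of 0.00891 (adjusted 0.996) and an exact permutation p of 0.0159.

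Slitrk5 was also the highest SLITRK per kb in WT embryos (306 ± 23.7), although Slitrk3 (287 ± 52.4) and Slitrk1 (285 ± 39.8) lay within its SD or their own. Slitrk2 (103 ± 14.5) and the X-linked Slitrk4 (75.6 ± 11.0) were lower. Differences of Tbr1 K228E/K228E from WT embryos were 0.19 (SE 0.10) for Slitrk3, -0.06 (SE 0.08) for Slitrk1, -0.04 (SE 0.08) for Slitrk2, and -0.04 (SE 0.11) for Slitrk4. Between the mutant genotypes, 4 of 5 Tbr1 K228E/K228E embryos exceeded all Tbr1 +/K228E embryos for Slitrk3, with a log2 difference of 0.17 (SE 0.10) and an exact permutation p of 0.0397 that the limma test did not match (p = 0.111, adjusted p = 0.996).

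LRRTMs are postsynaptic neurexin ligands of excitatory synapses. Lrrtm2 had normalized read counts of 1144, 1105, 1336, 1200, and 1323 in WT embryos, 1122, 1209, 1103, 1347, and 1116 in Tbr1 +/K228E embryos, and 953, 1088, 1176, 1133, and 1096 in Tbr1 K228E/K228E embryos. All Tbr1 K228E/K228E embryos lay under the median of the WT embryos and 3 of 5 under the lowest of them. Lrrtm2 thus differed by -0.16 (SE 0.07) from WT with a limma p of 0.0393 (adjusted 1.00) and an exact permutation p of 0.0635, and by -0.11 (SE 0.07) from Tbr1 +/K228E embryos.

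Lrrtm1 had normalized read counts of 1218, 1246, 1368, 1336, and 1257 in WT embryos, 1390, 1236, 1299, 1304, and 1318 in Tbr1 +/K228E embryos, and 1408, 1205, 1605, 1589, and 1329 in Tbr1 K228E/K228E embryos. Lrrtm1 was the highest LRRTM per kb in WT embryos (424 ± 21.0), above Lrrtm2 (203 ± 17.3), Lrrtm3 (175 ± 14.5), and Lrrtm4 (95.2 ± 7.81), of which Lrrtm2 and Lrrtm3 did not differ beyond their SDs. Its 3 highest values were in Tbr1 K228E/K228E embryos, as was its lowest, and the difference from WT of 0.14 (SE 0.07) ran opposite in sign to those of Lrrtm2, Lrrtm3 (-0.23, SE 0.15), and Lrrtm4 (-0.08, SE 0.07). Among these only Lrrtm2 had an interval that left out 0, and a difference between the LRRTMs was not tested.

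Calsyntenins are cadherin-related proteins that carry cargo on axonal kinesin and, at the surface, bind neurexins. Clstn2 had normalized read counts of 2627, 2844, 3276, 2383, and 2797 in WT embryos, 3002, 3315, 2845, 2952, and 2446 in Tbr1 +/K228E embryos, and 2389, 1634, 2889, 2605, and 2420 in Tbr1 K228E/K228E embryos. One Tbr1 K228E/K228E female, at 1634, was far below the others, and 3 of 5 Tbr1 K228E/K228E embryos were below all Tbr1 +/K228E embryos. Clstn2 (chr9:97444395-98033181, minus strand) differed by -0.30 (SE 0.13) from Tbr1 +/K228E embryos, with a limma p of 0.0308 (adjusted 0.996) and an exact permutation p of 0.0635, and by -0.24 (SE 0.13) from WT. Without that female the differences were -0.17 and -0.11. The same embryo had the lowest cell cycle score of the series (9.19) and a forebrain score of 10.8 against a median of 11.4, scores that are described below.

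Clstn1 had normalized read counts of 16505, 15518, 15544, 19874, and 16661 in WT embryos, 17622, 13613, 15469, 16020, and 17111 in Tbr1 +/K228E embryos, and 16985, 17115, 16293, 17146, and 16080 in Tbr1 K228E/K228E embryos. A single WT male, at 19874, stood above the other 14 embryos, and the genotypes otherwise overlapped. Differences of Tbr1 K228E/K228E from WT embryos were -0.00 (SE 0.07) for Clstn1 and 0.01 (SE 0.12) for Clstn3, whose WT level was 984 ± 176 per kb against 489 ± 57.7 for Clstn2.

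On the axonal side, neurexins and LAR-type phosphatases are the hubs that most of the ligands above bind. Nrxn2 had normalized read counts of 13895, 11891, 13283, 16650, and 14308 in WT embryos, 15128, 10963, 13103, 13886, and 13902 in Tbr1 +/K228E embryos, and 13317, 13865, 13776, 14854, and 13005 in Tbr1 K228E/K228E embryos. Both the highest and the second lowest Nrxn2 values belonged to WT embryos, and Tbr1 K228E/K228E embryos lay inside the WT range. Nrxn2 was higher per kb than Nrxn3 (314 ± 38.6), and differences of Tbr1 K228E/K228E from WT embryos were -0.02 (SE 0.09) and -0.03 (SE 0.07).

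Ptprs had normalized read counts of 33340, 36017, 39442, 30929, and 35950 in WT embryos, 33085, 37233, 34834, 36559, and 35627 in Tbr1 +/K228E embryos, and 33304, 36227, 39982, 36938, and 36636 in Tbr1 K228E/K228E embryos. The ranges overlapped throughout, and the difference of Tbr1 K228E/K228E from WT embryos was 0.06 (SE 0.06). Ptprf (908 ± 15.6 per kb in WT) had the smallest spread within genotypes of all members, with an SD of 0.05 on the log2 scale, and differed by 0.01 (SE 0.04). Ptprd (481 ± 58.8 per kb) differed by -0.11 (SE 0.09).

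Neuroligins are the postsynaptic neurexin receptors, Nlgn1 mainly at excitatory and Nlgn2 at inhibitory synapses. Nlgn2 had normalized read counts of 10010, 10356, 10822, 9993, and 10475 in WT embryos, 10296, 10197, 10040, 11602, and 11089 in Tbr1 +/K228E embryos, and 9907, 10873, 10316, 10643, and 10164 in Tbr1 K228E/K228E embryos. No genotype stood apart, and the 2 highest values were Tbr1 +/K228E males. Per kb Nlgn2 exceeded Nlgn3 (459 ± 37.1) and Nlgn1 (145 ± 14.3) in WT embryos. Nlgn1 was above the median of the Tbr1 +/K228E embryos in all 5 Tbr1 K228E/K228E embryos, with a difference of 0.12 (SE 0.06), an exact permutation p of 0.0317, and a limma p of 0.0565 (adjusted 0.996). Against WT the differences in Tbr1 K228E/K228E embryos were 0.06 (SE 0.06) for Nlgn1, 0.01 (SE 0.04) for Nlgn2, and -0.01 (SE 0.05) for Nlgn3.

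Cerebellins are secreted neurexin ligands, some of which link neurexins to delta glutamate receptors. Cbln4 and Cbln2 were the most variable members within genotypes. Cbln1 had normalized read counts of 1535, 1369, 1435, 1932, and 1515 in WT embryos, 1971, 1013, 1577, 1614, and 1612 in Tbr1 +/K228E embryos, and 1550, 1334, 1394, 1510, and 1262 in Tbr1 K228E/K228E embryos. Both extremes of Cbln1 fell in Tbr1 +/K228E females, and the WT and Tbr1 K228E/K228E embryos lay between them. Within genotypes the SD on the log2 scale was 0.40 for Cbln4, 0.30 for Cbln2, 0.26 for Lrrtm3, and 0.24 for Cbln1, against a median of 0.13 for the 39 members and 0.15 for all genes tested. Cbln4 varied 2.97-fold over the 15 embryos, from 291 to 863. Cbln1 (513 ± 72.3 per kb in WT) and Cbln2 (498 ± 90.6) did not differ beyond their SDs, and changed places when the longest transcript was used, while Cbln4 was lower (208 ± 61.4). Differences of Tbr1 K228E/K228E from WT embryos were -0.14 (SE 0.14), -0.12 (SE 0.17), and 0.03 (SE 0.23) for Cbln1, Cbln2, and Cbln4.

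SALMs are postsynaptic adhesion proteins, some of which bind the phosphatases or PSD-95. Lrfn4 had normalized read counts of 2530, 2514, 2558, 2733, and 2594 in WT embryos, 2620, 2476, 2659, 2742, and 2750 in Tbr1 +/K228E embryos, and 2683, 2730, 2833, 2686, and 2502 in Tbr1 K228E/K228E embryos. The values of Lrfn4 stayed within 1.14-fold of each other across all embryos, and the genotypes overlapped. In WT embryos the order per kb was Lrfn4 (768 ± 26.0), Lrfn1 (474 ± 49.5), Lrfn3 (349.7 ± 28.6), Lrfn5 (249 ± 24.8), and Lrfn2 (145 ± 21.0), with neighbours apart by more than their SDs. By the longest transcript, Lrfn5 moved up from rank 28 to rank 18 among the members. The 5 differences of Tbr1 K228E/K228E from WT embryos ran from -0.00 (SE 0.06) for Lrfn3 to 0.08 (SE 0.09) for Lrfn2.

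SynCAMs are immunoglobulin proteins that pair with each other across the cleft. Cadm3 had normalized read counts of 10825, 9756, 10146, 13482, and 12279 in WT embryos, 11669, 8718, 10189, 10963, and 11239 in Tbr1 +/K228E embryos, and 10523, 12531, 10712, 12435, and 10582 in Tbr1 K228E/K228E embryos. The highest Cadm3 value was a WT male and the lowest a Tbr1 +/K228E female, with overlap of all genotypes. Cadm3 was higher per kb than Cadm1 (876 ± 104) and Cadm2 (453 ± 66.0) in WT embryos, and Tbr1 K228E/K228E embryos differed from WT by 0.01 (SE 0.10), 0.11 (SE 0.07), and 0.02 (SE 0.09) for Cadm3, Cadm1, and Cadm2.

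Cntnap2 had normalized read counts of 3502, 3245, 3623, 3374, and 3251 in WT embryos, 3402, 3449, 3454, 3684, and 3503 in Tbr1 +/K228E embryos, and 3359, 3362, 3387, 3481, and 3040 in Tbr1 K228E/K228E embryos. CASPR2, the product of Cntnap2, gathers potassium channels along axons and is an autism-linked member. One Tbr1 K228E/K228E male, at 3040, was below all other embryos, and 4 of 5 Tbr1 K228E/K228E embryos were below all Tbr1 +/K228E embryos. The difference was -0.07 (SE 0.04) between the mutant genotypes, with an exact permutation p of 0.0476 and a limma p of 0.104 (adjusted 0.996), and -0.03 (SE 0.04) between Tbr1 K228E/K228E and WT embryos.

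Sex was balanced over the genotypes, and 4 members, Nlgn3, Il1rapl1, Slitrk2, and Slitrk4, lie on the X chromosome. With genotype in the model, 0 of 39 members passed the adjusted limma threshold between 6 males and 9 females (0.0788% of all genes did). At an unadjusted limma p under 0.05 there were 11 of 39 (11% of all genes), 10 higher (6.23%) and 1 lower (4.81%) in males, and the exact permutation test gave 10 of 39 (11.2% of all genes). Of the 10 that were higher by limma, Il1rapl1 and Nlgn3 are X-linked. The others are autosomal: Slitrk3 (0.20, SE 0.07), Lrfn1 (0.14, SE 0.05), Cadm2, Adgrl3, Cadm3, Adgrl1, Lrfn5, and Nlgn1. Flrt2, the member lower in males, is autosomal too. Male minus female differences were above 0 for 35 of 39 members (8314 of all 16507 genes), with a median of 0.10 on the log2 scale against 0.00 for all genes. Beside this, the cell cycle score of the embryos was 9.62 ± 0.26 in males and 9.93 ± 0.30 in females (SD, n = 6 and n = 9, exact permutation p = 0.0659). The cell cycle score is the mean log2 value of 20 genes of dividing cells.

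Il1rapl1 had normalized read counts of 269.8, 221, 251, 333, and 300.5 in WT embryos, 244, 263, 258, 264, and 280.5 in Tbr1 +/K228E embryos, and 252, 284, 254, 323, and 319 in Tbr1 K228E/K228E embryos. IL1RAPL1 is a postsynaptic ligand of PTPRD whose loss causes intellectual disability. Of the 6 males (the last 2 values of each genotype), 4 were above all 9 females, with 303 ± 26.8 normalized counts in males and 255 ± 17.3 in females (SD, n = 6 and n = 9). The log2 difference was 0.25 (95% interval 0.11 to 0.39), the exact permutation p was 0.0012, and the limma p was 0.00215 (adjusted 0.410). With the Hox, meningeal, and cell cycle scores added to the model the difference was 0.20 (SE 0.09, limma adjusted p = 0.830). Genotype differences of Il1rapl1 were -0.06 (SE 0.11) for Tbr1 +/K228E and 0.06 (SE 0.11) for Tbr1 K228E/K228E against WT embryos.

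Nlgn3 (chrX:101299168-101325963, plus strand) ran from 3810 to 4347 with a median of 4010 in females and from 4198 to 4662 with a median of 4327 in males. All 6 males were above the median of the females and 2 of 6 above the highest female. The male minus female difference was 0.11 (SE 0.03, exact permutation p = 0.0052, limma adjusted p = 0.410). Slitrk4 (628 ± 68.2 in females, 683 ± 87.8 in males, difference 0.12, SE 0.09) and Slitrk2 (803 ± 68.8 in females, 835 ± 75.7 in males, difference 0.06, SE 0.07) had intervals that included 0. The difference of Slitrk4 was not smaller than that of Nlgn3 but less precise, and a difference between these genes was not tested. Under the same added scores the difference was 0.06 for Nlgn3, -0.05 for Slitrk4, and -0.03 for Slitrk2, so that the last 2 changed sign.

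**Figure D4:**
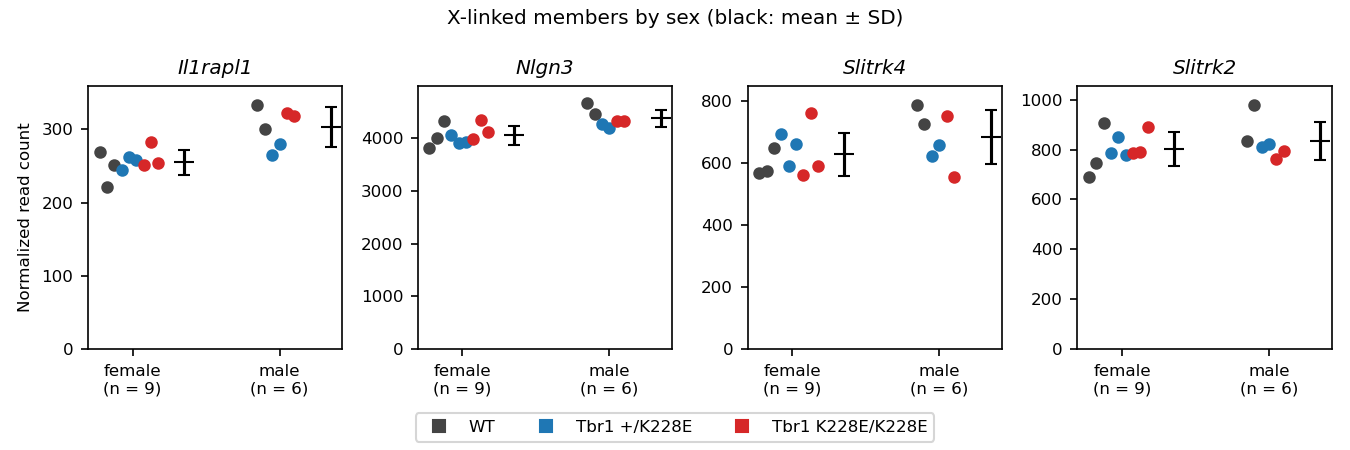
Normalized read counts (axes from 0) of the 4 X-linked members in 9 female and 6 male embryos, coloured by genotype, with mean ± SD in black. Il1rapl1 has 4 of 6 males above every female, whereas the sexes overlap more for the other genes.

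Members also varied with scores of marker genes, which stand in for tissue content that was not measured. Scores were the mean log2 values of 18 Hox genes, 12 meningeal genes, and 20 genes of dividing cells such as Mki67 and Top2a, and slopes were fitted for all 3 together with genotype. No score differed between genotypes (exact permutation p from 0.246 to 0.968), which does not show that they were equal. Along the cell cycle score, limma called 17 of 39 members (20.5% of all genes), of which 15 fell (10.3% of all genes) and 2 rose (10.2%). The median slope of the members was -0.19 per unit of the score, against 0.00 for all genes.

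Cbln4 fell by 0.93 per unit (SE 0.17, limma adjusted p = 0.00204), Cbln2 by 0.59 (SE 0.18, limma adjusted p = 0.0348), and Slitrk4 by 0.47 (SE 0.09, limma adjusted p = 0.0020). In the 3 embryos with the lowest scores (9.19 to 9.46) Cbln4 stood at 835, 863, and 711, and in the 3 with the highest scores (10.1 to 10.2) at 460, 451, and 291. The values at the opposite ends did not overlap. Cbln4 was named for its slope over these same embryos, so that this is not a second test. Of the others that fell, the SynCAMs Cadm3 and Cadm2, the latrophilins Adgrl3 and Adgrl1, the calsyntenins Clstn3 and Clstn1, the SALMs Lrfn1 and Lrfn5, Slitrk3, Nlgn3, Ptprd, and Nrxn2, the lowest adjusted p was that of Cadm3 (limma, 0.000355).

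Clstn2 and Flrt2 went the other way and were the only 2 members called upward, out of 9 with a slope above 0. Clstn2 rose by 0.44 per unit (SE 0.13, limma adjusted p = 0.0313) and Flrt2 by 0.38 (SE 0.07, limma adjusted p = 0.00246). Flrt2 read 2606, 2630, and 2891 in the 3 embryos with the lowest scores and 3344, 3286, and 3694 in the 3 with the highest. Beside the members, 15 of 28 cytoplasmic scaffolds fell and 2 rose with the score, and 6 of 27 extracellular partners fell and 4 rose. Calls downward also numbered 3 of 11 relatives and 3 of 12 neuron markers. Of all genes, 10.3% were called downward and 10.2% upward.

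Telencephalic markers moved with the same score: 9 of the 10 rose, with a median slope of 0.89 per unit, and the forebrain score (mean log2 of the 10) was 10.6 to 11.2 in the 3 embryos with the lowest cell cycle scores and 11.4 to 11.8 in the 3 with the highest. With the forebrain score as a covariate, chosen after seeing the data, limma called 1 of 39 members (Ptprd; 0.424% of all genes), and the slopes became -0.36 for Cbln4, 0.004 for Cbln2, -0.24 for Slitrk4, 0.0044 for Flrt2, and -0.42 for Clstn2, so that the directions of Cbln2 and Clstn2 turned. Dividing cells and forebrain share cannot be told apart by these slopes. With sex as a covariate the calls numbered 5 of 39 (7.26% of all genes), Cbln4 and Slitrk4 among them but not Cbln2, Clstn2, or Flrt2. The calls numbered 10 without WT embryo 3 (13.5% of all genes) and 10 without WT embryo 5 (12.6%). Among the named slopes, the calls of Cbln4, Slitrk4, and Flrt2 held without any 1 embryo. That of Cbln2 was lost without WT embryo 2, 3, or 5, Tbr1 +/K228E embryo 4, or Tbr1 K228E/K228E embryo 2 or 3 (limma adjusted p up to 0.172), and that of Clstn2 without WT embryo 2 or 4 or Tbr1 K228E/K228E embryo 1, 2, or 3 (limma adjusted p up to 0.170). Without Tbr1 K228E/K228E embryo 2, the female with the lowest Clstn2 value, the slope of Clstn2 was 0.25.

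**Figure D5:**
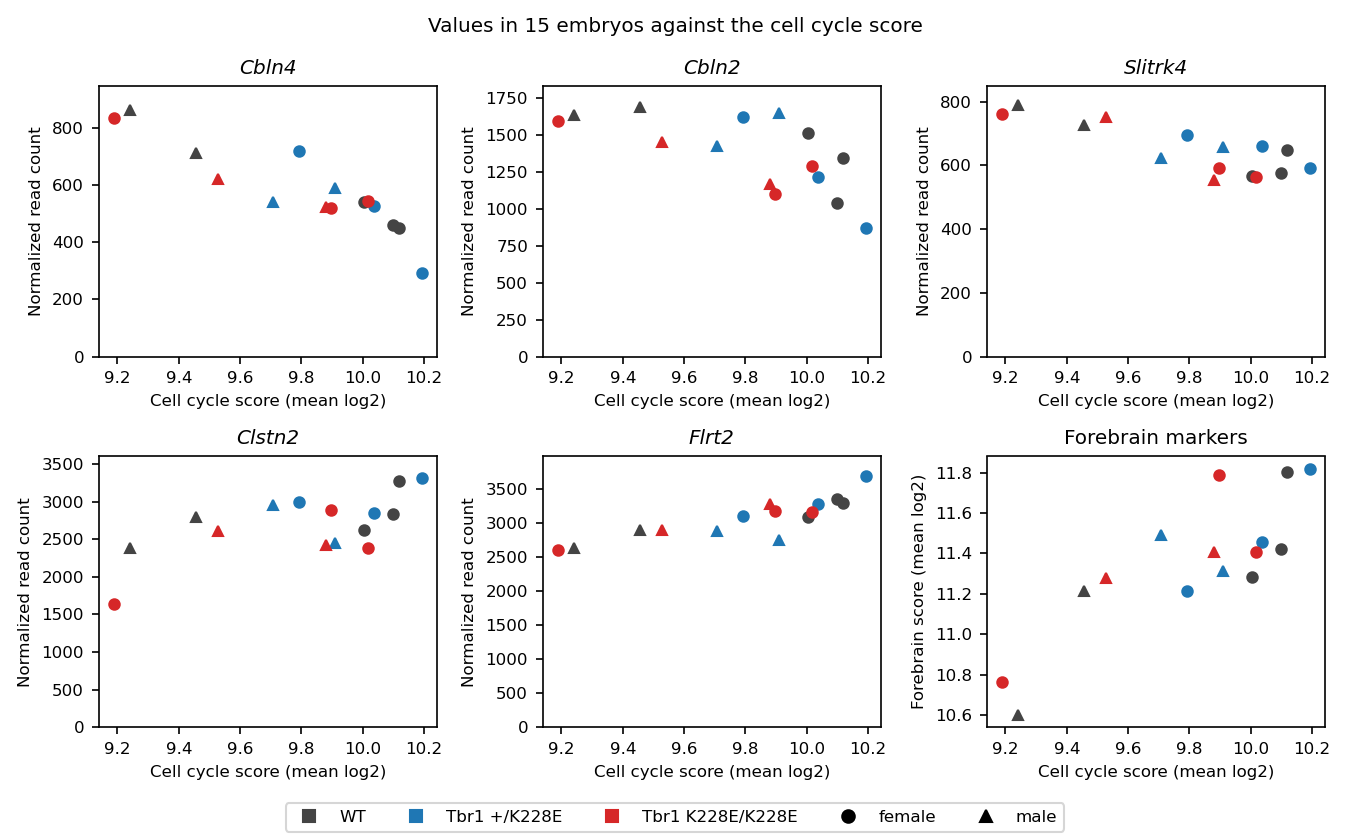
Normalized read counts of Cbln4, Cbln2, Slitrk4, Clstn2, and Flrt2 (axes from 0) and the forebrain score (mean log2, axis from its lowest values) against the cell cycle score (mean log2) in the 15 embryos, coloured by genotype, circles for females and triangles for males. Cbln4 descends from 863 to 291 with the score, Flrt2 climbs from 2606 to 3694, and the forebrain score climbs as well.

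Along the meningeal score, 37 of 39 members had slopes below 0 (9237 of all 16507 genes), with a median of -0.02 per unit against 0.00 for all genes. By limma, 1 of 39 was called (7.58% of all genes, 0.969% in the downward direction). This was Lrrtm1, which fell by 0.05 per unit (SE 0.01, limma adjusted p = 0.0302) over a score that ran from 4.72 to 10.1. The call was lost without WT embryo 1 or 2, Tbr1 +/K228E embryo 1, or Tbr1 K228E/K228E embryo 3, 4, or 5 (limma adjusted p from 0.0506 to 0.108). Along the Hox score, limma called 0 of 39 members (0.6% of all genes), with 9 of 39 at an unadjusted p under 0.05 (18.1% of all genes). Ptprd had the lowest limma p of these (slope -0.04, SE 0.01, adjusted p = 0.0800), and Cbln1, abundant in the hindbrain, the steepest slope (0.07, SE 0.02, limma adjusted p = 0.152).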

How the data were processed

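Brain RNA of 15 mouse embryos (5 per genotype) was sequenced as paired-end reads. The authors quantified transcripts with Salmon 0.11.2 on GRCm38, summed them to genes with tximport, and scaled them by DESeq2 1.22.2 size factors in R 3.5.3. The deposited numbers are thus a signal that was normalized by library, with decimals in place of whole counts. The library kit does not mark strand, so that reads of overlapping antisense genes cannot be told apart. The values did not resolve into whole reads, and count models were not used. Steps between low values put the depth at 26.2 to 38.0 M reads and its median at 29.8 M, and depth limits genes with low values more than these members.

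Groups, sexes, and embryo numbers came from the sample labels, and no sample was left out. Of 19475 genes, 19452 were matched to GENCODE M21, which gave symbols, coordinates, and exon lengths. The linear models of limma 3.58.1 (R 4.3.3, moderated with a trend on the mean) were fitted on log2(value + 1) to 16507 genes with a mean of at least 5, two-sided, with 1 fit for all genotypes. The fold changes therefore understate those of low genes. Sex was fitted with genotype, and score slopes with genotype and the other 2 scores. Two-sided exact permutation tests used 252 splits of 5 against 5 embryos and 5005 splits of 9 females and 6 males. The procedure was tested on simulated data.

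The members and lists were chosen with earlier results of these data known. All embryos' values are given for members with an unadjusted limma p under 0.05 or without overlap in a genotype comparison, and for the highest member per kb of each family. For slopes, at most the 3 largest calls in each direction are described, and further calls are listed by name. Listed partners are named where an adjusted p was under 0.05, or an unadjusted p was under 0.05 without overlap. Further members are named to account for the class, some once their values were known. As alternatives, the pseudocount was set to 0.1 or 10, the minimum mean to 0 or 50, and the scaling to upper-quartile or quantile. Robust moderation, an empirical null, 2 genotypes alone, sex, scores or the embryo number in the model, and leaving out each embryo were also tried. A fit with all 3 scores and one with forebrain markers were added after seeing the data. After those results were seen, the forebrain list was reduced by 1 gene that is not reported here.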

Additional observations from a re-analysis of the deposited data

Results flagged for a closer look

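Among 120 groups of 5 embryos (39 members and Tbr1 in 3 genotypes), 4 held an embryo whose gap to its nearest neighbour, divided by the range of the group, exceeded Dixon's critical value of 0.71. Chance flags about 1 in 20 groups. Clstn1 was 19874 in WT embryo 4, against 16661 in the next highest WT embryo. Slitrk2 was 892 in Tbr1 K228E/K228E embryo 3, against 795 in the next highest. Flrt3 was 1531 in the same embryo, against 1298 in the next highest. Cntnap2 was 3040 in Tbr1 K228E/K228E embryo 5, against 3359 in the next lowest. No difference between the sexes in a genotype effect was called by limma for any member (smallest adjusted p = 0.734, with 7 of 78 tests at an unadjusted p under 0.05, against 6.58% of the tests of all genes).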

How the results depend on the processing

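The 0 calls for Tbr1 +/K228E against WT, for Tbr1 K228E/K228E against WT, for the allele slope, and for sex remained 0 under every alternative run. Between the mutant genotypes 1 member (Flrt3) was called with the Hox score as a covariate and 1 with the forebrain markers. The Hox slope gave 1 call with sex as a covariate, and 0 to 1 without each embryo. The meningeal slope gave 0 calls when fitted without the other scores, and 0 to 2 without each embryo. The cell cycle slope gave 5 calls with sex as a covariate, 1 with the forebrain markers, and 10 to 19 without each embryo. For these the cause was not tested. The log2 difference between Tbr1 +/K228E and WT embryos turned from -0.03 to 0.0146 for Slitrk5 with all 3 scores (-0.0631 to 0.0099 without each embryo), from 0.07 to -0.0372 for Clstn2 with the forebrain markers, and from -0.03 to 0.0087 for Tenm2 with the cell cycle score and 0.0067 with all 3 scores (-0.103 to 0.0466 without each embryo). The sex difference turned to -0.0267 for Slitrk2 and to -0.0517 for Slitrk4 with the scores added, and the cell cycle slope to -0.4153 for Clstn2, to 0.004 for Cbln2, and to 0.0819 for Clstn1 with the forebrain markers. Embryo numbers do not pair the embryos by design. Deviations of same-numbered embryos correlated from -0.232 to 0.506, and not every embryo correlated best with its own number. With the replicate block, the members called were 0 in each genotype comparison, and over all genes the calls were 0, 16, and 2 in place of 0, 21, and 13. With 5 embryos per genotype, differences beyond 0.5 on the log2 scale lay within the intervals of Cbln4, Lrrtm3, and Clstn2 against WT.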
